A study of Danio rerio with 32 samples.

Results

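The genes described here encode proteins that carry the light signal in rod photoreceptors. They are 7 of 8 chosen by gene name among the 32520 genes of the deposited table, namely gnat1, gnb1b, gngt1, pde6a, pde6b, pde6ga and cngb1a, all 7 were found there, and they were read in 16 eye libraries of the series' 32 libraries. The eyes were dissected from wild-type zebrafish embryos that had spent 0.75 to 120 hours post fertilization (hpf) in water with 0.1% DMSO, the solvent that all groups shared, and PFNA, perfluorononanoic acid, a persistent fluorinated surfactant, at 0 or 12.5 µM. The light cycle had 14 light and 10 dark hours (LD), and constant darkness lasted the full 24 h (DD). This gave 4 groups of 4 eye libraries, called LD DMSO, LD PFNA, DD DMSO and DD PFNA, beside 4 matching groups of brains. PFNA is the compound in the title, the treatment protocol and the labels of the treated samples, which were followed here, although the design text speaks of PFHxS. The labels do not say how many embryos went into a library or whether replicates came from separate clutches, so p-values measure only the spread between these libraries, which may be technical.

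In a rod, absorbed light activates the G protein transducin, which is built from an alpha, a beta and a gamma subunit. The freed alpha subunit relieves the cyclic GMP phosphodiesterase PDE6 of its inhibitory gamma subunits, the catalytic alpha and beta subunits lower cyclic GMP, and cyclic nucleotide-gated channels in the outer segment membrane close. In zebrafish larvae cones carry most early vision while rods are still being added, and photoreceptor transcripts are known to follow the daily light cycle.

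The questions set by the design are what PFNA did under each photoperiod, what constant darkness did with each treatment, and whether the PFNA effect differed between photoperiods. In LD eyes with PFNA, the transcripts of both larger transducin subunits (gnat1, gnb1b) and of both catalytic PDE6 subunits (pde6a, pde6b) fell to between 0.545 and 0.773 of the DMSO mean. In DD eyes pde6a and pde6b fell with PFNA by a similar proportion, to 0.705 and 0.729 of the DMSO mean. Constant darkness changed other members: the inhibitory PDE6 subunit pde6ga rose 2.55-fold in DMSO eyes and the channel subunit cngb1a fell to 0.506 of its LD level. Whether PFNA acted differently under the 2 photoperiods was tested for 6 members, and none passed.

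**Figure D1:**
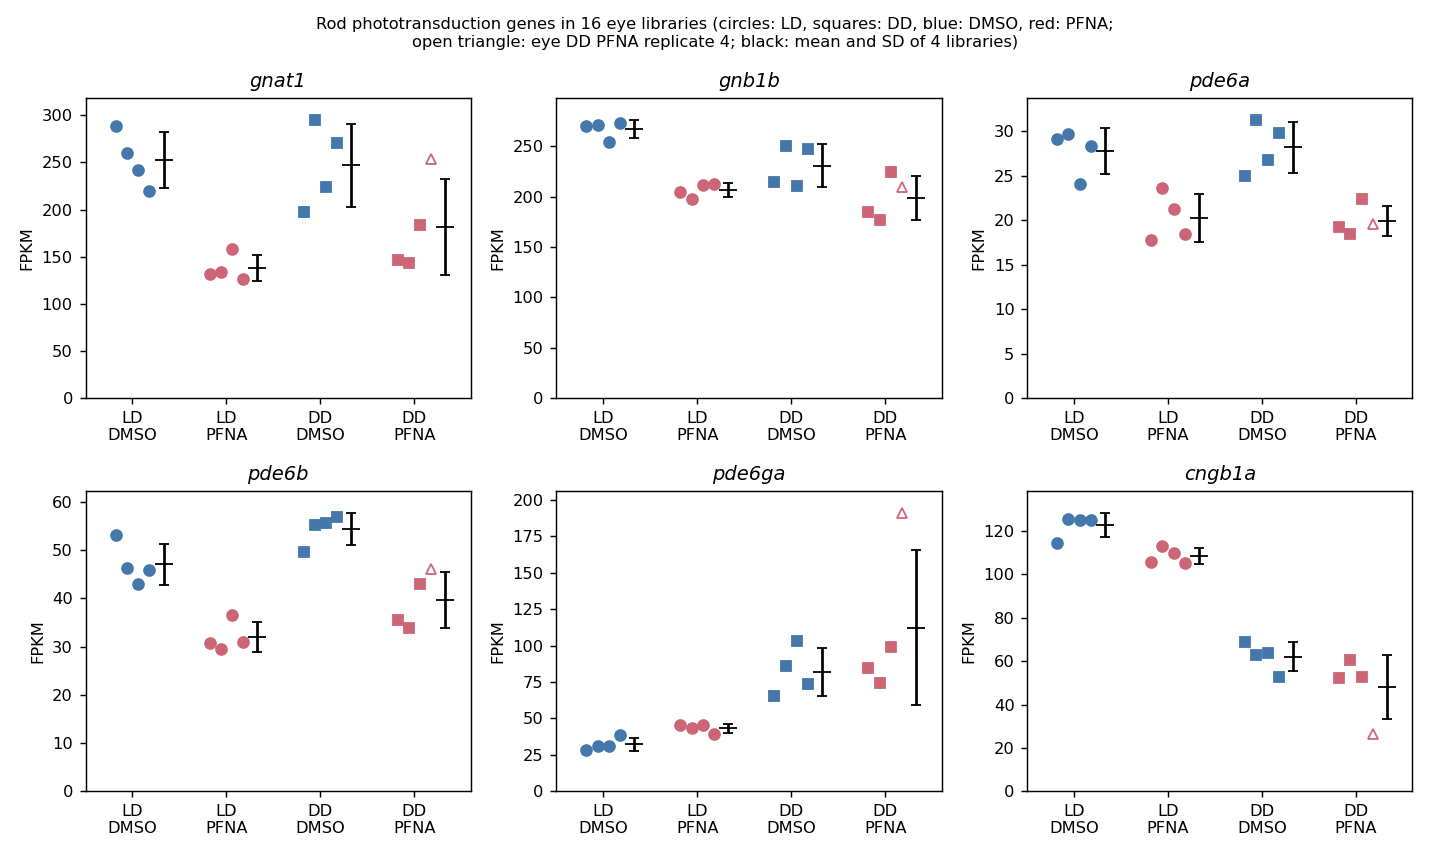
FPKM of 6 rod genes (vertical axes, linear from 0) in each of 16 eye libraries by group; black bars show the mean and SD of 4 libraries, and the open triangle is eye DD PFNA replicate 4. All 4 LD PFNA libraries lie below all 4 LD DMSO libraries for every gene but pde6ga, which lies above, and the DD libraries stand apart from the LD libraries for pde6ga (higher) and cngb1a (lower).

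Values are FPKM (fragments per kilobase of gene length, scaled by the authors with a divisor for each library). From them 8.825 to 15.724 M (mega) fragments were recovered per eye library (median 11.151 M). The divisor was 0.9834 to 1.0208 times this total in LD DMSO eyes and 0.9423 to 0.9617 times in LD PFNA eyes. In DD eyes it was 1.0082 to 1.0388 times with DMSO and 0.8993 (replicate 4) to 1.0055 times with PFNA. One library, eye DD PFNA replicate 4, stood apart: mitochondrial genes took 10.01% of its fragments against 4.664 to 8.034% in the other 15. The members' fold changes for PFNA in DD eyes and for darkness in PFNA eyes are given with and without this library. Other values of DD PFNA eyes, and values of other genes, include it unless stated. Because whole eyes were sequenced, fewer rods and less RNA per rod cannot be told apart. Differences were tested with limma on log2(FPKM + 1) over 18204 genes with all 16 libraries in the fit, and p-values are two-sided and adjusted over all these genes by the Benjamini-Hochberg method. A gene is said to have risen or fallen where its adjusted p was under 0.05. The limma fold changes are on the log2(FPKM + 1) scale, while ratios of means are of FPKM itself. The comparisons share groups (LD DMSO serves PFNA in LD and darkness with DMSO, for example), so their values are set side by side without reading one as support for another.

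The labelled tissue was checked on the members' levels in brains. In the LD DMSO groups the mean FPKM in eyes was 457 times that in brains for cngb1a, 388 times for pde6b, 320 times for gnat1, 88.3 times for pde6ga and 42.8 times for pde6a. The beta subunit gene gnb1b had a ratio of 1.40, with 151 to 235 FPKM in 15 brain libraries against 177 to 273 FPKM in the 16 eye libraries. In these eyes it is therefore not read as a rod gene alone, because other cells of the nervous system use the same subunit.

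Gnat1 (ENSDARG00000044199, chromosome 6, 42918933 to 42930302, plus strand, in the files' coordinates, whose build is not given in the sources used here) encodes the rod transducin alpha subunit, which activates PDE6. It had 2529 to 8032 recovered fragments per eye library. In LD DMSO eyes its values were 289, 260.2, 242 and 219 FPKM, and in LD PFNA eyes 132, 134, 158 and 127 FPKM. The lowest LD DMSO library lay above the highest LD PFNA library. The means were 253 ± 29.5 and 138 ± 13.9 FPKM, and gnat1 fell by 0.87 ± 0.17 on the log2 scale (limma, adjusted p = 0.00378), the largest fall among the 6 in that comparison and one that passed in 24 of 24 other settings.

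In DD DMSO eyes gnat1 had 198, 295, 224 and 270.5 FPKM and in DD PFNA eyes 147, 143, 184 and 253 FPKM. The ranges overlapped because replicate 4 of the PFNA eyes held 253 FPKM, while its other 3 libraries lay below all DMSO libraries. The fold change was -0.46 ± 0.17 (adjusted p = 0.0987), and without that library it was -0.63 ± 0.14 and passed (adjusted p = 0.00703; 158 ± 22.5 FPKM, n = 3, against 247 ± 43.8 FPKM). Darkness left gnat1 with overlapping ranges in both treatments, at -0.04 ± 0.17 with DMSO (adjusted p = 0.900) and 0.36 ± 0.17 with PFNA (adjusted p = 0.151). Without DD PFNA replicate 4 the value with PFNA was 0.19 ± 0.14 (adjusted p = 0.399).

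Gnb1b (ENSDARG00000104372, chromosome 6, 53304977 to 53334259, minus strand) encodes the beta subunit that pairs with the rod alpha subunit and is used widely in neurons. Its values were 270.1, 271, 254 and 273 FPKM in LD DMSO eyes and 205, 197, 212 and 213 FPKM in LD PFNA eyes. The groups were tight and did not overlap. Gnb1b fell from 267 ± 8.73 to 207 ± 7.17 FPKM (log2 fold change -0.37 ± 0.09, adjusted p = 0.0195), a call lost without LD DMSO replicate 1, 2 or 4 or LD PFNA replicate 2, with adjusted p up to 0.0587. In DD eyes the values were 215, 251, 210.2 and 248 FPKM with DMSO and 185, 177, 224 and 209.8 FPKM with PFNA. These overlapped, with a fold change of -0.22 ± 0.09 (adjusted p = 0.171; -0.24 ± 0.09 and 0.0790 without DD PFNA replicate 4). Darkness moved gnb1b by -0.21 ± 0.09 with DMSO (adjusted p = 0.152) and by -0.06 ± 0.09 with PFNA (adjusted p = 0.692; -0.09 ± 0.09 and 0.554 without that library).

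Gngt1 (ENSDARG00000035798, chromosome 19, 40856534 to 40859468, plus strand) is annotated as the rod transducin gamma subunit. It was listed at 0 in 15 of 16 eye libraries, and replicate 1 of the DD PFNA eyes held 1 fragment, or 0.117 FPKM. A count of 0 allows up to 3 fragments, which is 0.207 to 0.385 FPKM across these libraries and covers counting error only. No other gene of the table overlaps it, and it did not reach the filter for the test. The other members were well covered in the same libraries, and whether the annotation behind the table places reads of gngt1 elsewhere was not tested, so these values describe this gene model only.

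Pde6a and pde6b encode the catalytic alpha and beta subunits of the rod phosphodiesterase. Pde6a (ENSDARG00000000380, chromosome 14, 25005403 to 25035010, minus strand) had 29.1, 29.7, 24.0 and 28.4 FPKM in LD DMSO eyes and 17.8, 23.6, 21.2 and 18.5 FPKM in LD PFNA eyes. Its ranges did not overlap, although LD DMSO replicate 3 and LD PFNA replicate 2 came close. Pde6a fell by 0.44 ± 0.11 (limma, adjusted p = 0.0168; 27.8 ± 2.58 to 20.3 ± 2.67 FPKM), a call lost without LD DMSO replicate 1 or 2 or LD PFNA replicate 1 or 4, with adjusted p up to 0.0597. In DD eyes it had 24.99, 31.3, 26.8 and 29.9 FPKM with DMSO and 19.2, 18.5, 22.4 and 19.6 FPKM with PFNA, again without overlap. The DD fall was 0.48 ± 0.11 (adjusted p = 0.0109), from 28.2 ± 2.86 to 19.9 ± 1.71 FPKM, and 0.48 ± 0.11 without DD PFNA replicate 4 (adjusted p = 0.0124). Pde6a overlaps the gene TMEM216 by 261 bases, so a part of its reads is uncertain.

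Pde6b (ENSDARG00000011671, chromosome 21, 20356458 to 20376607, plus strand) had 53.1, 46.2, 43.0 and 45.8 FPKM in LD DMSO eyes and 30.8, 29.6, 36.5 and 31.0 FPKM in LD PFNA eyes. All DMSO libraries lay above all PFNA libraries, and pde6b fell by 0.54 ± 0.11 (adjusted p = 0.00427; 47.0 ± 4.27 to 32.0 ± 3.07 FPKM). In DD eyes it had 49.5, 55.2, 55.6 and 56.8 FPKM with DMSO and 35.6, 33.8, 43.0 and 46.0 FPKM with PFNA. The DD groups did not overlap either, and the DD fall was 0.46 ± 0.11 (adjusted p = 0.0136), from 54.3 ± 3.25 to 39.6 ± 5.83 FPKM. Without DD PFNA replicate 4 it was 0.53 ± 0.10 (adjusted p = 0.00242). Both DD calls were lost when only the 2 DD groups were fitted (adjusted p = 0.0578 for pde6a and 0.0861 for pde6b) and held in the other 23 settings. Darkness moved neither catalytic subunit past the threshold: pde6a changed by 0.02 ± 0.11 with DMSO and -0.02 ± 0.11 with PFNA, and pde6b by 0.21 ± 0.11 (adjusted p = 0.233) and 0.29 ± 0.11 (adjusted p = 0.0740). Without DD PFNA replicate 4 the values with PFNA were -0.01 ± 0.11 for pde6a and 0.22 ± 0.10 for pde6b (adjusted p = 0.951 and 0.164).

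Pde6ga (ENSDARG00000056791, chromosome 3, 19460991 to 19466015, plus strand) encodes the inhibitory gamma subunit that holds PDE6 inactive in the dark. It had 28.3, 30.9, 31.3 and 38.4 FPKM in LD DMSO eyes and 65.4, 86.2, 103 and 73.7 FPKM in DD DMSO eyes. The lowest DD library held more than the highest LD library by a wide margin. Pde6ga rose with darkness by 1.31 ± 0.22 in DMSO eyes (limma, adjusted p = 0.00198; 32.2 ± 4.35 to 82.2 ± 16.5 FPKM). In PFNA eyes it had 45.2, 43.3, 45.8 and 39.2 FPKM under LD and 84.6, 74.5, 99.1 and 191 FPKM under DD. Replicate 4 of the DD PFNA eyes, at 191 FPKM, was the highest of all 16 libraries. The rise with darkness was 1.25 ± 0.22 (adjusted p = 0.00338) with it and 0.97 ± 0.14 (adjusted p = 0.00133) without it, and both rises passed in 24 of 24 other settings.

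Pde6ga was also the one tested member whose mean was higher with PFNA. Under LD the groups did not overlap (32.2 ± 4.35 against 43.4 ± 2.98 FPKM), and the fold change was 0.42 ± 0.22 with an adjusted p of 0.264 in the fit of 16 libraries and 0.0387 without DD PFNA replicate 4. That library takes no part in the LD comparison other than through the shared estimate of the spread. The LD rise also passed in a limma fit of the 2 LD groups alone (adjusted p = 0.0159) and with array weights (adjusted p = 0.0352). In all it passed in 3 of 24 other settings. Under DD the fold change was 0.36 ± 0.22 (adjusted p = 0.341), and 0.08 ± 0.14 without that library (adjusted p = 0.780; 86.1 ± 12.4 against 82.2 ± 16.5 FPKM). The paralog pde6gb, which encodes another gamma subunit and is named outside the naming rule as its counterpart, had means of 70.6 and 110 FPKM in LD and DD DMSO eyes (0.59 ± 0.20, adjusted p = 0.0610, and 0.0248 without DD PFNA replicate 4) and rose from 65.1 to 149 FPKM in PFNA eyes (1.17 ± 0.20, adjusted p = 0.00234).

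Cngb1a (ENSDARG00000068242, chromosome 18, 45483282 to 45519748, plus strand) encodes the beta subunit of the rod cyclic nucleotide-gated channel. It had 114, 126, 125 and 125 FPKM in LD DMSO eyes and 68.8, 62.8, 63.6 and 52.7 FPKM in DD DMSO eyes. No DD value came near the LD range, and cngb1a fell by 0.98 ± 0.18 (limma, adjusted p = 0.00338; 123 ± 5.41 to 62.0 ± 6.74 FPKM). In PFNA eyes it had 105, 113, 109.9 and 105 FPKM under LD and 52.0, 60.4, 52.8 and 26.6 FPKM under DD, the last in replicate 4, the lowest of all 16 libraries. The fall with darkness was 1.22 ± 0.18 (adjusted p = 0.00122), and 0.97 ± 0.08 without that library (adjusted p = 2.904e-05). Like the rises of pde6ga, both falls passed in 24 of 24 other settings. With PFNA the means were slightly lower under LD (108 ± 3.73 against 123 ± 5.41 FPKM, ranges apart, -0.17 ± 0.18, adjusted p = 0.620) and under DD (47.9 ± 14.7 against 62.0 ± 6.74 FPKM, -0.42 ± 0.18, adjusted p = 0.162), and neither passed. Without DD PFNA replicate 4 the DD value was -0.17 ± 0.08 (adjusted p = 0.224; 55.1 ± 4.65 FPKM, n = 3), and the LD call was unchanged (adjusted p = 0.144).

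**Figure D2:**
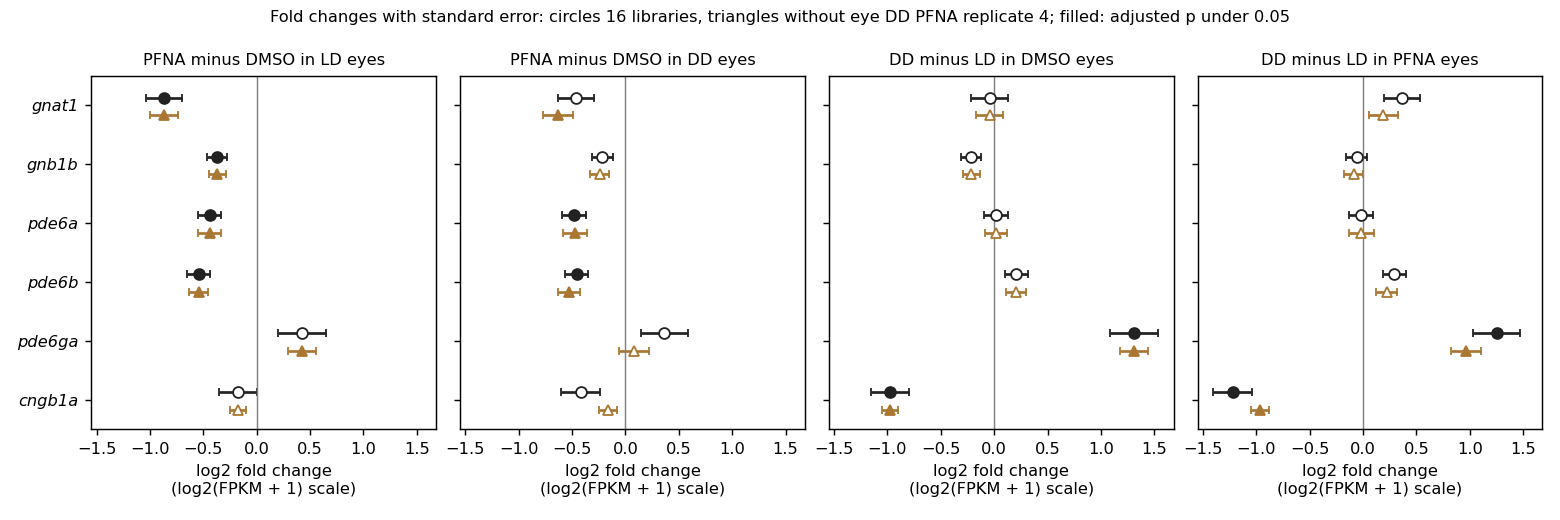
The log2 fold changes of 6 rod genes (horizontal axis, log2(FPKM + 1) scale) in 4 comparisons, with bars of 1 SE from limma; circles use 16 libraries, triangles leave out eye DD PFNA replicate 4, and filled symbols have an adjusted p under 0.05. Symbols for gnat1, gnb1b, pde6a and pde6b are filled to the left for PFNA under LD, and pde6ga (right) and cngb1a (left) are filled for darkness in both treatments.

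Counted over the members, 4 of 6 fell and 0 rose with PFNA under LD, where 3.7% of all tested genes fell and 7.05% rose. The median log2 fold change of the 6 was -0.41 against 0.01 over all genes tested. Without eye DD PFNA replicate 4, 4 fell and 1 rose (pde6ga), against 6.68% and 11% of all genes. Without LD DMSO replicate 1, and likewise without LD DMSO replicate 2, 2 members passed (gnat1, pde6b). Over the fits without 1 library 1307 to 3198 genes were called under LD, against 1956 with all 16. A weaker result for the members is therefore not told apart here from fewer calls over all genes. The ranges of the LD groups did not overlap for 6 of 6 members, 5 lower and 1 higher, against 9.53% lower and 13.5% higher over all genes.

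With PFNA under DD, 2 of 6 fell and 0 rose, where 4.36% of all genes fell and 6.54% rose, and the median was -0.44 against -0.02. The count was 5 with quantile scaling, 4 with voom weights and 0 in a fit of the DD groups alone. Over all genes 2216, 2086 and 762 were called in these settings, against 1983 in the main fit. The count of 0 thus came with fewer calls over all genes. Without eye DD PFNA replicate 4, 3 fell (gnat1 joined), and 0 rose, where 5.51% of all genes fell and 8.57% rose. The ranges of the DD groups did not overlap for 2 of 6 members, pde6a and pde6b, both lower, against 6.7% lower and 7.81% higher over all genes.

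With darkness in DMSO eyes, 1 of 6 rose (pde6ga) and 1 fell (cngb1a), where 6.22% of all genes rose and 6.34% fell, and the median was -0.01 against 0.03. With darkness in PFNA eyes, 1 rose (pde6ga) and 1 fell (cngb1a), where 7.04% and 9.05% of all genes did, and the median was 0.14 against 0.01. The DD and LD ranges did not overlap for 3 of 6 members with DMSO, 2 lower (gnb1b, cngb1a) and 1 higher (pde6ga), against 13.1% and 11.8% of all genes. With PFNA they did not overlap for 2 of 6, 1 lower (cngb1a) and 1 higher (pde6ga), against 11.1% and 8.25%. Leaving out eye DD PFNA replicate 4 gave the same called members, where 10% of all genes rose and 12.1% fell with DMSO and 4.49% rose and 6.5% fell with PFNA.

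When the PFNA effect under DD was compared with that under LD, limma called 0 of 6 members (interaction term, adjusted p from 0.550 to 0.961), where 0.137% of all genes were called. Without eye DD PFNA replicate 4 it also called 0 of 6, where 0.316% of all genes were called. At an unadjusted p under 0.05 the count was also 0, and limma with voom weights on recovered fragments called 0. The gnat1 estimate was 0.41, meaning a smaller fall under DD (adjusted p = 0.550), and 0.23 without eye DD PFNA replicate 4 (adjusted p = 0.667). Without that library the pde6ga estimate went from -0.06 to -0.35 (adjusted p = 0.961 and 0.509) and the cngb1a estimate from -0.24 to 0.01 (adjusted p = 0.756 and 0.981). So the passing of gnat1 and gnb1b under LD and not under DD does not show that PFNA acted on them differently in the light cycle.

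Subunit transcripts were compared by ratios within each library, which do not depend on library size and were not tested. The inhibitory pde6ga had 0.434 ± 0.0752 FPKM for each FPKM of pde6a plus pde6b in LD DMSO eyes (0.344 to 0.518, n = 4). The ratio was 0.833 ± 0.0665 in LD PFNA eyes (0.791 to 0.931), 0.995 ± 0.184 in DD DMSO eyes (0.850 to 1.25) and 1.85 ± 0.708 in DD PFNA eyes (1.43 to 2.91, or 1.495 ± 0.0625 with n = 3 without replicate 4). LD DMSO lay below every other library and DD PFNA above every other library, with LD PFNA and DD DMSO overlapping between them. This ratio leaves out the gamma paralog pde6gb, so it does not describe all gamma subunits. Pde6gb had higher means than pde6ga in every group (70.6, 65.1, 110 and 149 FPKM in the same order). The ratio of pde6b to pde6a within the catalytic pair ran from 1.55 to 1.82 in LD DMSO eyes, 1.25 to 1.73 in LD PFNA, 1.77 to 2.08 in DD DMSO and 1.83 to 2.35 in DD PFNA eyes (1.83 to 1.92 without replicate 4). The DD PFNA and DD DMSO libraries lay above the LD PFNA libraries, the DD PFNA libraries also above the LD DMSO libraries, and DD DMSO overlapped LD DMSO.

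The channel ratio was lower in both dark groups. Cngb1a had 3.80 ± 0.506 FPKM for each FPKM of its partner alpha subunit genes cnga1a plus cnga1b in LD DMSO eyes and 4.30 ± 0.488 in LD PFNA eyes. In the dark the ratio was 1.48 ± 0.239 in DMSO eyes and 1.83 ± 0.722 in PFNA eyes (2.09 ± 0.611 without replicate 4), and no DD library reached the LD range. The partners are named outside the naming rule: cnga1a had means of 10.7, 6.68, 15.3 and 7.77 FPKM and cnga1b of 21.9, 18.9, 26.9 and 19.5 FPKM in LD DMSO, LD PFNA, DD DMSO and DD PFNA eyes. Cnga1a fell with PFNA under LD (-0.62 ± 0.17, limma, adjusted p = 0.0319) and DD (-0.94 ± 0.17, adjusted p = 0.00239), while with darkness in DMSO eyes it had 0.49 ± 0.17 (adjusted p = 0.0785).

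The ratio of gnb1b to gnat1 was highest in LD PFNA eyes. Gnb1b is not read as a rod gene alone here, so this ratio does not describe the subunit balance within rods. Gnb1b had 1.07 ± 0.130 FPKM for each FPKM of gnat1 in LD DMSO eyes, 1.51 ± 0.141 in LD PFNA eyes, 0.947 ± 0.0999 in DD DMSO eyes and 1.14 ± 0.206 in DD PFNA eyes (1.24 ± 0.0185 without replicate 4). All LD PFNA libraries lay above all LD DMSO libraries. In DD PFNA eyes replicate 4 lay below the other 3 libraries.

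**Figure D3:**
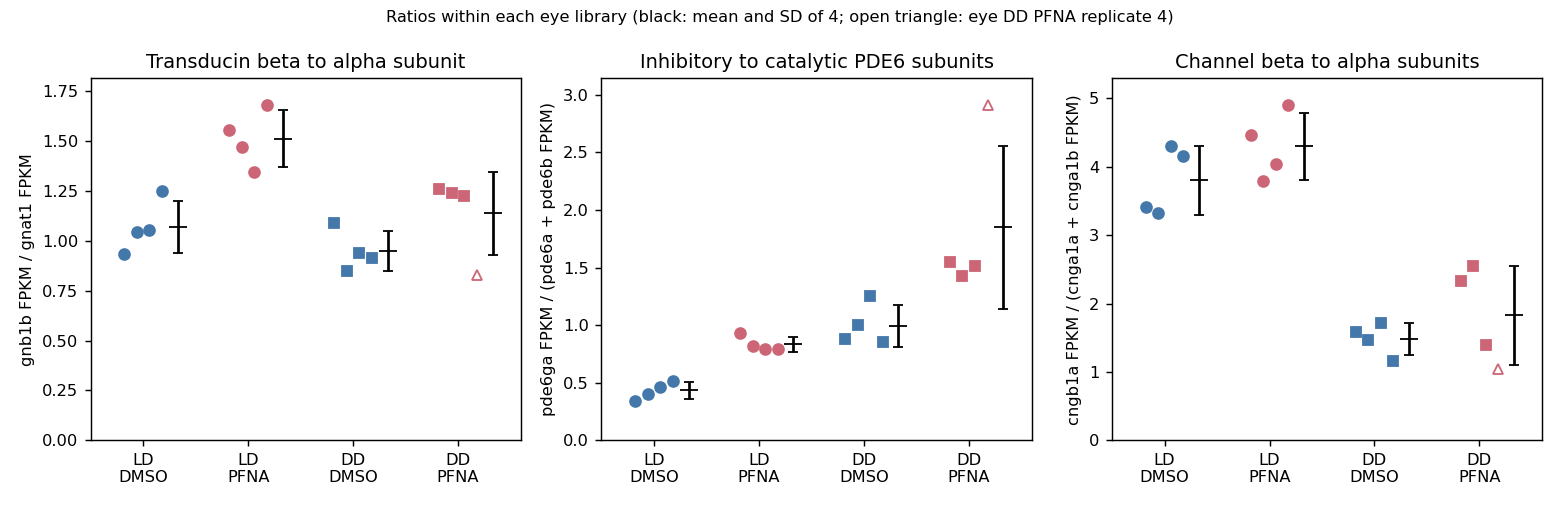
Ratios of FPKM within each eye library (vertical axes, linear from 0) for gnb1b to gnat1, pde6ga to catalytic PDE6 subunits, and cngb1a to channel alpha subunits; blue is DMSO, red PFNA, circles LD, squares DD, black the mean and SD of 4, and the open triangle eye DD PFNA replicate 4. The pde6ga ratio runs from 0.344 to 0.518 in LD DMSO eyes and from 1.43 to 2.91 in DD PFNA eyes, and the channel ratio is lower in all DD libraries than in any LD library.

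Of 37 other listed rod outer segment genes, 33 were in the table and 32 were tested. With PFNA under LD the median was -0.22 against 0.01 over all genes. There 9 fell and 0 rose, where 3.7% of all genes fell and 7.05% rose (14 fell without eye DD PFNA replicate 4, where 6.68% did). Those with the smallest p were rgs9a, whose product shortens transducin's active state (63.3 to 40.9 FPKM, -0.63 ± 0.12, limma, adjusted p = 0.00309), rp1l1b, an axoneme gene (30.0 to 19.3 FPKM, -0.62 ± 0.13, adjusted p = 0.00462), and rp1, which organises outer segment discs (13.4 to 7.53 FPKM, -0.76 ± 0.16, adjusted p = 0.00572). With PFNA under DD, 9 fell and 1 rose, where 4.36% of all genes fell and 6.54% rose. The falls were led by rp1l1b (34.5 to 14.6 FPKM, -1.20 ± 0.13, limma, adjusted p = 1.63e-05), rgs9a (47.4 to 29.0 FPKM, -0.69 ± 0.12, adjusted p = 0.00141) and gucy2f, a photoreceptor guanylate cyclase (10.4 to 6.92 FPKM, -0.53 ± 0.09, adjusted p = 0.00185). The list holds genes that cones use as well.

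With darkness in DMSO eyes 2 of these 32 rose and 1 fell, where 6.22% of all genes rose and 6.34% fell. Without eye DD PFNA replicate 4 the counts were 6 and 4, where 10% and 12.1% of all genes did. The median was 0.03 against 0.03 over all genes. The disc rim gene prph2b went from 82.8 to 149 FPKM (0.84 ± 0.15, limma, adjusted p = 0.00242), the cyclase activator gene guca1a from 17.7 to 38.6 FPKM (1.09 ± 0.20, adjusted p = 0.00301), and rgs9a from 63.3 to 47.4 FPKM (-0.41 ± 0.12, adjusted p = 0.0367). In PFNA eyes 2 rose, guca1a (1.29 ± 0.20, adjusted p = 0.00149) and pde6gb, and 4 fell, with rp1l1a lowest in p (33.4 to 16.5 FPKM, -1.003 ± 0.18, adjusted p = 0.00312). Of all genes 7.04% rose and 9.05% fell there. With all 16 libraries the darkness counts were near these shares and are not read as a change of the list. The interaction called 0 of 32, with 0.137% of all genes called.

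The 13 listed factors of rod fate were all tested. The list holds factors that cones use as well, so its changes are not read as changes of rod fate. Over all genes 7.05% rose and 3.7% fell with PFNA under LD, and 6.54% and 4.36% with PFNA under DD. Without eye DD PFNA replicate 4 these shares were 11% and 6.68% under LD and 8.57% and 5.51% under DD. With darkness 6.22% of all genes rose and 6.34% fell in DMSO eyes, and 7.04% and 9.05% in PFNA eyes. With PFNA under LD the photoreceptor repressor gene samd7 rose (30.0 to 59.0 FPKM, 0.97 ± 0.17, limma, adjusted p = 0.00172) and samd11 fell (8.97 to 5.49 FPKM, -0.61 ± 0.13, adjusted p = 0.00660), and without eye DD PFNA replicate 4 the counts were 5 higher and 2 lower. With PFNA under DD, neurod1, a photoreceptor precursor factor, fell from 158 to 84.4 FPKM (-0.88 ± 0.11, adjusted p = 5.76e-05), and without that library 3 rose and 2 fell. With darkness 0 rose in either treatment. In DMSO eyes prdm1a, rorb and samd11 fell, and in PFNA eyes 4 fell, among them neurod1, prdm1b and prdm1a. The fourth was nrl, the rod-determining factor in mammals, which went from 10.5 to 6.17 FPKM (-0.78 ± 0.26, adjusted p = 0.0481) and did not pass without that library (adjusted p = 0.0516). Neurod1 was the one factor called for the interaction (-0.81 ± 0.15, adjusted p = 0.0467).

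Cones were read as the nearest comparison. Of 5 cone opsins tested, 3 fell with PFNA under LD, 3 with PFNA under DD, 3 with darkness in DMSO eyes and 2 with darkness in PFNA eyes, and 0 rose in any of these. Among 15 cone transduction genes tested, 2 rose and 5 fell with PFNA under LD, 1 rose and 6 fell with PFNA under DD, 3 rose and 4 fell with darkness in DMSO eyes, and 2 rose and 6 fell with darkness in PFNA eyes. Over all genes 7.05% rose and 3.7% fell with PFNA under LD, and 6.54% and 4.36% with PFNA under DD. With darkness 6.22% rose and 6.34% fell in DMSO eyes, and 7.04% and 9.05% in PFNA eyes. The cone channel beta subunit gene cngb3.2, counterpart of cngb1a, fell with PFNA under LD from 40.1 to 23.5 FPKM (-0.75 ± 0.09, limma, adjusted p = 6.16e-05). It fell under DD from 32.7 to 10.6 FPKM (-1.55 ± 0.09, adjusted p = 2.95e-08), and its PFNA effect differed between photoperiods (-0.80 ± 0.12, adjusted p = 0.0195). That difference was called for 1 of 15 cone transduction genes, 0 of 5 cone opsins and 0 of 6 rod members tested here. Of all genes 0.137% were called for it. Outside the naming rule, PFNA is given for cone counterparts of gnat1, gnb1b, pde6a and pde6b. Under LD the means went from 1148 to 704 FPKM for gnat2, 1051 to 733 for gnb3b and 579 to 502 for pde6c. The DMSO and PFNA ranges were apart for gnat2 (1072.8 to 1240.2 against 624.41 to 810.45 FPKM) and gnb3b (966.51 to 1109.5 against 657.67 to 792.37 FPKM). They overlapped for pde6c (543.98 to 605.84 against 457.87 to 546.12 FPKM). Of all genes 9.53% had lower ranges with PFNA, without overlap. Under DD gnat2 fell from 823 to 530 FPKM (-0.64 ± 0.11, limma, adjusted p = 0.00102). Pde6c fell there from 422 to 277 FPKM (-0.64 ± 0.15, adjusted p = 0.0124), and gnb3b did not pass (-0.30 ± 0.10, adjusted p = 0.0653). Darkness is given likewise for the cone counterparts of cngb1a and pde6ga. Cngb3.2 fell in DMSO eyes (-0.28 ± 0.09, limma, adjusted p = 0.0455) and PFNA eyes (-1.09 ± 0.09, adjusted p = 1.04e-05). Pde6ha rose in DMSO eyes (553 to 1681 FPKM, 1.60 ± 0.27, adjusted p = 0.00185) and had 0.78 ± 0.27 in PFNA eyes (adjusted p = 0.0574). With PFNA under DD the channel alpha gene cnga3b was the 1 gene that rose (30.0 to 89.2 FPKM, 1.53 ± 0.14, adjusted p = 4.53e-06).

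Markers of other eye cells moved beside the members, and their part in the results was not tested. Retinal pigment epithelium markers (14 of 15 in the table) summed to 601 to 785 FPKM in LD DMSO eyes, 881 to 1110.1 in LD PFNA, 898 to 998 in DD DMSO and 894 to 1134 in DD PFNA. Of these, 4 of 13 tested rose and 0 fell with PFNA under LD, where 7.05% of all genes rose and 3.7% fell. With PFNA under DD 0 passed (1 rose without eye DD PFNA replicate 4), where 6.54% rose and 4.36% fell. With darkness in DMSO eyes 3 rose and 2 fell, where 6.22% and 6.34% of all genes did. In PFNA eyes 1 rose and 6 fell with darkness, where 7.04% and 9.05% did. Without eye DD PFNA replicate 4 the latter counts were 1 and 2, where 4.49% and 6.5% did. Müller glia markers (10 of 10) summed to 960 to 1014, 1193 to 1350, 1025 to 1337 and 1460.1 to 2109 FPKM in the same order of groups. The sums weigh abundant genes most. Among 9 Müller glia markers tested, 1 rose and 1 fell with PFNA under LD (median 0.01), and 1 rose and 1 fell under DD (median 0.16). Bipolar cell markers (13 of 13) summed to 378 to 423, 468 to 569, 369 to 412 and 416 to 583 FPKM, with cabp5b at 0 in 3 of the 4 groups and gnao1b at 0 in both PFNA groups. Among 11 bipolar cell markers tested, 3 rose and 0 fell with PFNA under LD (median -0.02). Under DD 2 rose and 2 fell with PFNA (median -0.14). Ganglion cell markers (12 of 12) summed to 213 to 259 FPKM over all groups, with islr2 at 0 throughout. Among 10 ganglion cell markers tested, 2 fell and 0 rose with PFNA under LD (median -0.08), where 3.7% of all genes fell. Under DD 0 of them passed with PFNA, and 2 fell without eye DD PFNA replicate 4, where 5.51% of all genes did. Amacrine and horizontal cell markers (13 of 13) summed to 665 to 680 FPKM in LD DMSO and 596 to 649 in LD PFNA, without overlap. The sums were 659 to 702 FPKM in DD DMSO and 639 to 742 in DD PFNA. Among 11 of them tested, 4 fell and 0 rose with PFNA under LD (median -0.35), where 3.7% of all genes fell. Under DD 2 fell and 1 rose with PFNA (median 0.02). With darkness in DMSO eyes 3 Müller glia markers rose and 1 fell. There 1 bipolar and 1 amacrine or horizontal marker fell, and 0 ganglion markers passed. In PFNA eyes 2 Müller glia markers rose and 1 fell with darkness, and 1 bipolar marker rose and 2 fell. Of amacrine and horizontal markers 3 rose and 1 fell there, and 0 ganglion markers passed. The darkness shares over all genes are those given above. Lens markers (14 of 15) summed to 11799 to 18451 FPKM in 15 libraries. Eye DD PFNA replicate 4 held the highest sums of lens (28442 FPKM), Müller glia (2109 FPKM) and bipolar (583 FPKM) markers, and without it the DD PFNA eyes held at most 1558 FPKM of Müller glia and 508 FPKM of bipolar markers.

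Exocrine pancreas genes, which an eye should lack, summed to 25.8 to 128 FPKM in LD DMSO, 33.3 to 78.2 in LD PFNA, 84.7 to 409 in DD DMSO and 67.8 to 290.3 in DD PFNA eyes (15 of 16 in the table, with ctrb1 at 0 in every group). With darkness 10 of 13 tested rose in DMSO eyes and 4 of 13 in PFNA eyes, where 6.22% and 7.04% of all genes rose. Their sums stand beside the darkness results for pde6ga and cngb1a, and their part in these was not tested. Brain and myelin markers (11 of 11) summed to 22.3 to 24.97 FPKM in LD DMSO, 25.8 to 31.4 in LD PFNA, 28.5 to 33.9 in DD DMSO and 31.9 to 54.6 in DD PFNA eyes (at most 35.7 without replicate 4), with gbx2 at 0. LD DMSO thus lay below the other 3 groups, and 0 of 6 tested passed in any comparison. Without replicate 4 of the DD PFNA eyes, 1 of 5 rose with PFNA under LD and 1 of 5 with darkness in DMSO eyes. Of all genes 11% and 10% rose in these fits. The part of the brain and myelin transcripts in the members' results was not tested.

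The members' profiles over the 16 eye libraries were compared by the root-mean-square (RMS) difference of log2(FPKM + 1), each profile centred on its own mean, which describes likeness and was not tested. Gnb1b and pde6a were closest (0.160), then gnat1 and pde6b (0.182) and pde6a and pde6b (0.187). Pde6ga and cngb1a, which darkness moved in opposite directions, were farthest apart (1.34). Among gnat1, gnb1b, pde6a and pde6b no pair differed by more than 0.299, while every pair with pde6ga or cngb1a differed by at least 0.571. All values come from the same 16 libraries and share their scaling.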

How the data were processed

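The authors deposited FPKM per gene for 32 libraries of eyes and brains. HISAT2 2.0.5 and featureCounts 1.5.0-p3 appear, with no role, in the submitters' processing notes. Directional and non-directional preparation are both described per the labels' protocols, and the genome build is not given in the sources used here. Libraries were read as paired 150 bp ends, per the labels' protocols. FPKM times gene length gave whole fragments for 100% of values within a tolerance of 0.05, so depth was recovered. The 2 columns of pooled values, an undescribed signal that the authors deposited beside the FPKM, were not used.

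The test in eyes was limma 3.58.1 (R 4.3.3; eBayes with a trend) on log2(FPKM + 1), with 4 group means and only genes that reached 1 FPKM in 4 or more of the 16 libraries. Fits without a library apply this filter anew. Of simulated 2-fold changes, limma called 73 of 100 for PFNA in LD eyes, 74 for PFNA in DD eyes and 47 for the interaction. Among genes simulated without a change it made 15, 24 and 12 false calls in these comparisons. The simulation drew each gene independently and held no outlying library. All falls of the members with PFNA were smaller than 2-fold. Alternatives were median-ratio and quantile scaling, a pseudocount of 0.1, no filter, a replicate block, array weights, voom on recovered fragments, fits of the compared groups alone, and leaving out each library. With voom weights, 2104, 2086, 2617, 2913 and 23 genes passed for PFNA in LD, PFNA in DD, darkness with DMSO, darkness with PFNA and the interaction. Of the 8 members, 1 is not reported here, with the tests and likeness search that need it. The other members are all named, and of other lists at most the 3 called genes of smallest p per comparison, with exceptions stated. Members and lists were chosen with earlier results of these data known. No sequence or promoter was analysed here.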

Additional observations from a re-analysis of the deposited data

Results flagged for a closer look

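Outlying libraries were looked for within each group of 4 for 6 members, 24 groups in all, where chance flags about 1 in 20 groups. Both cases found lay in LD DMSO eyes. For gnb1b, replicate 3 held 254.25 FPKM against 270.1 to 273.3 FPKM in the others, a gap of 0.833 of the group's range. For cngb1a, replicate 1 held 114.45 FPKM against 125 to 126 FPKM in the others, a gap of 0.943 of the range.

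Rod transcripts were present in the library labelled brain DD PFNA replicate 3, which entered no comparison here. It held 132.58 FPKM of gnat1, 19.808 FPKM of pde6a, 34.269 FPKM of pde6b, 86.173 FPKM of pde6ga and 25.259 FPKM of cngb1a. The highest DMSO brain library held 1.28, 1.24, 0.602, 0.992 and 0.483 FPKM of these genes in the same order. Of these 5 values, 4 lie within the range of the 16 eye libraries and that of cngb1a lies just below it, and its gnb1b level (199 FPKM) lies within the brain range as well as the eye range.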

How the results depend on the processing

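Of the members' fold changes under settings that kept all 16 libraries or the compared groups, 220 kept direction and side of the threshold, 10 passed newly, 2 no longer passed and 2 reversed. Leaving out 1 library gave 454, 3, 8 and 15. Both reversals of the first kind came with quantile scaling, at values near 0 (pde6a, darkness with PFNA, 0.0532; gnb1b, interaction, -0.0525). Leaving out 1 library also reversed values near 0, and the cngb1a interaction. The latter was -0.245 with 16 libraries and 0.0098 without eye DD PFNA replicate 4. The ranges were -0.133 to 0.0578 for gnat1 (darkness, DMSO), -0.0472 to 0.0734 for pde6a (darkness, DMSO), -0.0783 to 0.0515 for pde6a (darkness, PFNA), and -0.0972 to 0.0327 for pde6a, -0.346 to 0.102 for pde6ga and -0.375 to 0.0098 for cngb1a (interaction).

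With PFNA under DD, 5 members passed with quantile scaling, 4 with voom and 0 in the fit of those 2 groups. Array weights gave 3794 genes for PFNA under LD, 4598 for darkness with DMSO and 90 for the interaction, where all-library fits gave 1956, 2288 and 25. Fits of 2 groups alone gave 3199, 762, 3605 and 354 genes for PFNA under LD, PFNA under DD, darkness with DMSO and darkness with PFNA, against 1956, 1983, 2288 and 2928. The causes were not tested. Voom took the recovered fragment totals as library size, in place of the authors' divisor. With it, 52.14% of genes called for PFNA under LD and 41.75% under DD were higher, against 65.59% and 60.01%. The median log2 fold changes over all genes were then -0.053 and -0.1166, against 0.0113 and -0.0168. The part of the divisor in these differences was not tested.

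Without 1 library the genes called ranged over 1307 to 3198, 1329 to 2541, 1253 to 3993, 1467 to 3565 and 6 to 57 for those comparisons and the interaction, with 2 to 5, 2 to 3, 2 to 2, 2 to 3 and 0 to 0 members. The lowest count of 2 members under LD came without LD DMSO replicate 1 or 2.

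Replicate numbers gave no pairing that held across comparisons: same-numbered libraries correlated at -0.034 to 0.215. Only between DMSO and PFNA under DD did any exceed 0.1, replicate 1 at 0.134 and replicate 4 at 0.215. Each of these had its own number as best partner, and whether same-numbered DD libraries shared handling was not tested. With a replicate block 1841, 1925, 2243, 2920 and 24 genes passed, with 4, 2, 2, 2 and 0 members, and no member's call changed.

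The 4 libraries per group limit the tests of the 6 members. For gngt1 the limit of 3 fragments covers counting error only, and its gene model was not tested.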

Other observations

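Genes of the pineal organ, which like the retina detects light, summed to 19.2 to 49.9 FPKM in eyes. Some melatonin pathway genes changed: aanat2, the enzyme that paces melatonin synthesis, rose with PFNA under LD from 16.5 ± 2.34 to 33.97 ± 3.204 FPKM (n = 4, log2 fold change 1.003 ± 0.24, limma, adjusted p = 0.0136). Under DD it rose to a mean of 21.4 ± 3.69 FPKM (0.88 ± 0.24, adjusted p = 0.0285), a call that was lost without eye DD PFNA replicate 4 (adjusted p = 0.0584). Asmt, the last enzyme of that pathway, fell with darkness from 8.39 ± 2.05 to 2.998 ± 0.617 FPKM in DMSO eyes (-1.22 ± 0.24, adjusted p = 0.00454) and from 5.83 ± 2.77 to 2.37 ± 0.613 FPKM in PFNA eyes (-0.96 ± 0.24, adjusted p = 0.0169). Tph1a, a serotonin synthesis gene, fell with PFNA under DD from 3.11 ± 0.796 to 1.85 ± 0.377 FPKM (-0.52 ± 0.15, adjusted p = 0.0411).

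Of 3 tested G protein beta subunit paralogs of gnb1b, gnb1a was the one that passed in any of the 4 comparisons: it fell with darkness in DMSO eyes from 66.7 ± 11.9 to 41.7 ± 6.70 FPKM (-0.66 ± 0.20, limma, adjusted p = 0.0445). Gnb2 and gnb4b had group means of 6.64 to 10.03 FPKM and did not pass.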
